A study of Mus musculus with 4 samples.

Results

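Cxcl16 and Cxcr6 are a chemokine gene and the gene of its receptor, and their RNA was followed across the immune and endothelial cells of the mouse liver after exercise. Both were taken by their gene symbols from the deposited list of genes, where they are 2 of 31053. The rule used no measured value of either gene, although earlier results of these data were known when the pair was chosen. In these livers Cxcl16 RNA lay in macrophages, Kupffer cells, endothelial cells and dendritic cells, and Cxcr6 RNA lay in gamma-delta T, NKT, CD8 T and ILC1-like cells. With exercise Cxcr6 was higher in ILC1-like cells, by 1.75 ± 0.32 on the log2 scale. In Kupffer-like, other macrophage-like and endothelial-like cells the change of Cxcl16 did not pass the test.

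The data were droplet counts of RNA molecules, tagged with unique molecular identifiers (UMIs), from single cells of the livers of male mice aged 8 weeks. The animals bore tumours of MC38, a mouse colon carcinoma line, in a model of liver metastasis promoted by surgical stress, and were killed 3 weeks after tumour injection. Cells that carry CD45, the surface protein of blood-derived cells, were enriched with beads from the fraction without hepatocytes. Libraries Sed 1 and Sed 2 came from mice kept sedentary, and libraries Ex 1 and Ex 2 from mice given exercise ahead of surgery. Tumour and surgical model are shared by both groups, and the labels name no strain, genotype or exercise schedule. The labels do not say whether each library came from a separate animal or from a pool, so the p-values measure only the spread between these libraries.

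CXCL16 is an unusual chemokine, since it is made as a transmembrane protein with a mucin stalk. On the cell surface it holds cells that carry CXCR6 and takes up oxidised lipoprotein, and after cleavage by the metalloproteases ADAM10 and ADAM17 it acts as a soluble attractant. CXCR6 is a receptor coupled to inhibitory G proteins and is carried by NKT cells, type 1 innate lymphoid cells (ILC1) and tissue-resident T cells. In the liver CXCL16 on the sinusoidal lining is known to keep patrolling NKT cells in the sinusoids. The comparison therefore has 2 sides: the cells that hold RNA of the ligand (myeloid and endothelial cells) and those that hold RNA of the receptor (NKT, ILC1 and T cells), each in sedentary against exercised mice.

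In the mouse genome build GRCm38 with the annotation GENCODE vM21, Cxcl16 (ENSMUSG00000018920) is a protein-coding gene on the minus strand of chromosome 11, from 70453983 to 70459984. It has 3 annotated transcripts of 5 to 6 exons. Its 5′ end shares 552 bases with Zmynd15 on the other strand. Cxcr6 (ENSMUSG00000048521) is a protein-coding gene on the plus strand of chromosome 9, from 123806475 to 123811760, with 2 transcripts of 2 exons each. All of its 5286 bases lie within the span of Fyco1, a gene on the minus strand, and the chemokine receptor genes Ccr9 and Xcr1 lie on either side of Fyco1. Whether the counting used the strand of the reads was not stated, and whether reads of these partner genes entered the counts was not tested.

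The cells kept after filtering numbered 23840, from 4097 to 7141 per library, with median depths of 3286 to 3749 UMIs per cell. Of the barcode sequences 61 occurred in more than 1 library among kept cells. Cells were clustered with Cxcl16 and Cxcr6 left out, and 24 classes were named from lists of marker genes that hold neither gene, hence the ending -like. The level of a gene in a class is given in CPM, its UMIs scaled to 1000000 UMIs of that class in a library. Of these classes 12 had at least 30 cells in every library and were tested, and the others are described only. The share of mitochondrial UMIs was higher in both exercised libraries, at 3.92% and 4.36%, than in the sedentary ones, at 2.61% and 2.95%.

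On the ligand side the order of the levels began with migratory dendritic cells, which carry antigen to lymph nodes. Cxcl16 stood there at 807 CPM in Sed 1, 615 in Sed 2, 743 in Ex 1 and 816 in Ex 2, with 11 to 44 cells per library, so the groups overlapped. Other macrophage-like cells, the non-Kupffer macrophages led by Cxcl9, Arg1 and Spp1 or by complement C1q genes, came next. Their library ranges overlapped neither with the migratory dendritic cells above nor with the Kupffer-like cells below. Kupffer-like cells, the resident macrophages of the sinusoids, and endothelial-like cells, the lining of the sinusoids and vessels, did not differ from each other beyond their spread. Endothelial cells were not the target of the CD45 beads and are here as carried-over cells.

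**Figure D1:**
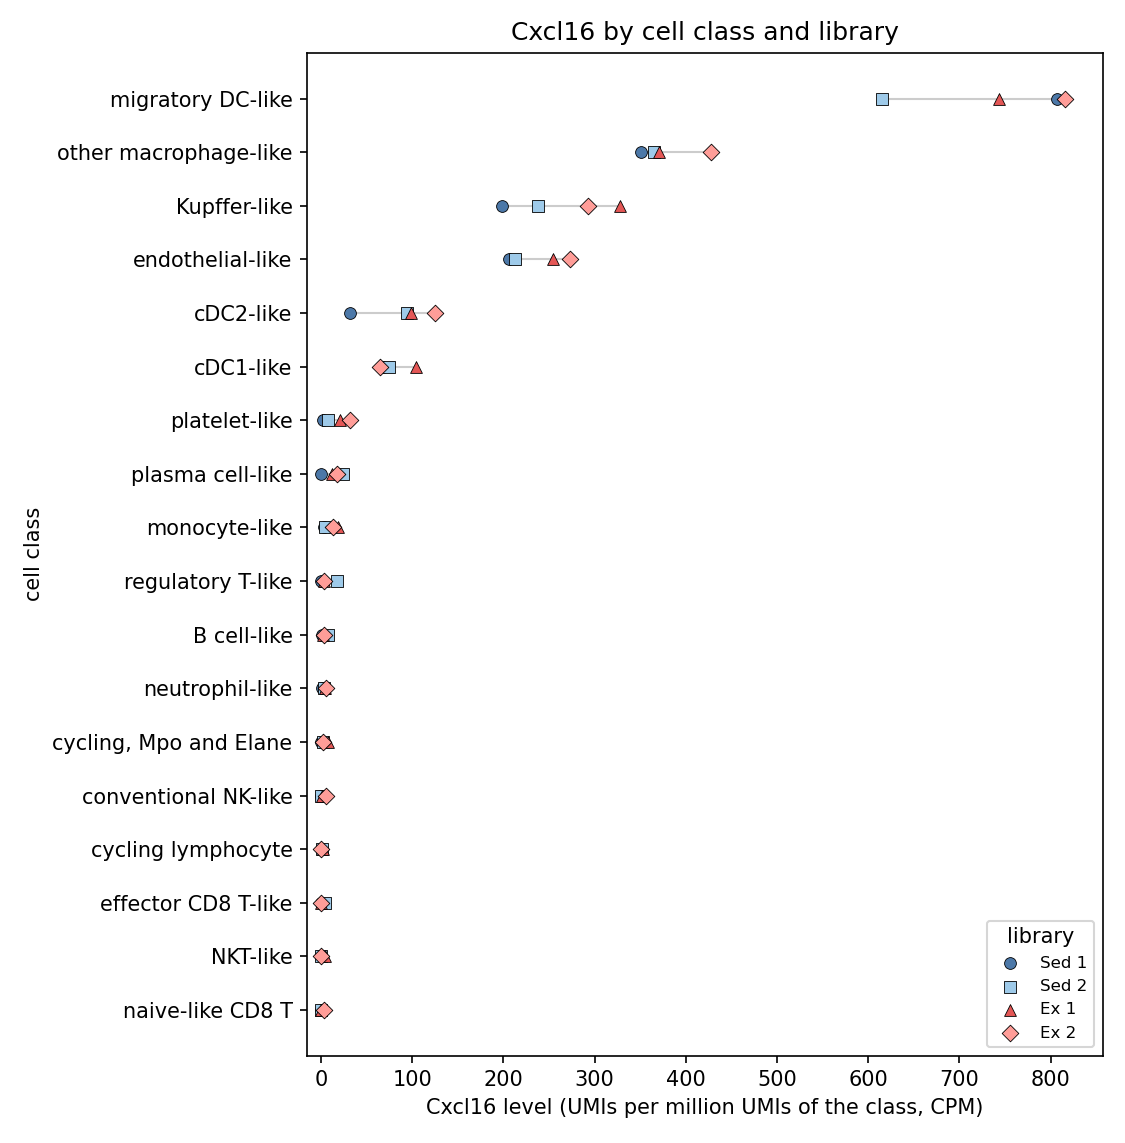
Level of Cxcl16 in CPM (linear axis) in the 18 highest cell classes other than hepatocyte-like cells, 1 point per library, with a grey line over the range of the 4 libraries. Migratory dendritic, macrophage-like, Kupffer-like and endothelial-like cells lie above 190 CPM in every library, and the lymphocyte classes lie near 0.

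In the other macrophage-like cells Cxcl16 stood at 351 (Sed 1), 365 (Sed 2), 371 (Ex 1) and 428 CPM (Ex 2). In Kupffer-like cells it was at 199 and 238 CPM against 328 and 293 CPM, and in endothelial-like cells at 206 and 213 CPM against 255 and 273 CPM. In each of these 3 classes Sed 1 was the lowest library and both exercised libraries lay above both sedentary ones, as they did for 21.3%, 13.9% and 37.4% of all genes tested in the same class. The log2 change was 0.20 ± 0.19 (SE) in other macrophage-like cells (edgeR quasi-likelihood test, Benjamini-Hochberg adjusted p = 0.641), where 0.335% of 9546 genes were called. It was 0.61 ± 0.28 in Kupffer-like cells (edgeR adjusted p = 0.56), where 0.112% of 7128 genes were called, and 0.17 ± 0.19 in endothelial-like cells (edgeR adjusted p = 0.642), where 10.6% of 9002 genes were called. These differences were thus not larger than the spread the test allows for. Log2 changes here come from sums scaled by TMM, edgeR's trimmed mean of M-values. Ratios of the unscaled CPM would put the median gene at 0.16 in endothelial-like, 0.15 in ILC1-like and 0.14 in NKT-like cells.

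The classes are not uniform. The Kupffer-like class joined a cluster of well-filled cells and one of few UMIs per cell, with medians of 9025 and 883 UMIs. In the first Cxcl16 was at 206, 232, 302 and 337 CPM in Sed 1, Sed 2, Ex 1 and Ex 2, with only 18 and 21 cells in the exercised libraries. In the second it was at 183, 267, 334 and 252 CPM, so that there the groups overlapped. Endothelial-like cells came mostly from different clusters in the 2 groups. A cluster led by Abcc9, Fabp4 and Clca3a1 held 60 and 176 sedentary but 1 and 4 exercised cells, and one led by Plpp3, Cyp26b1 and Ehd3 held 1 and 12 sedentary but 137 and 342 exercised cells. The other 38, 94, 197 and 293 cells had few UMIs and formed a cluster of their own, with Cxcl16 at 224, 95.9, 199 and 204 CPM. In Sed 1, Sed 2, Ex 1 and Ex 2 Cxcl16 was at 203, 215, 0.0 and 269 CPM in the former and at 259, 277, 273 and 286 CPM in the latter, so the groups overlapped within each cluster.

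The share of cells with the ligand's RNA was also counted. A Cxcl16 UMI was found in 74.0% (exact 95% interval 68.0 to 79.4), 73.5% (68.7 to 77.9), 66.8% (63.5 to 69.9) and 72.1% (66.9 to 76.8) of the other macrophage-like cells of Sed 1, Sed 2, Ex 1 and Ex 2. Conventional NK-like cells, which served as the background, had one in 0.0%, 0.0%, 0.474% and 1.6% of their cells, at median depths of 3122 to 5841 UMIs against 7196 to 8107 in the macrophages. Thinned to 1000 UMIs per cell, the macrophage-like cells gave 27.6%, 25.6%, 26.8% and 29.7%, and the NK-like cells 0.0%, 0.0%, 0.0% and 0.8%. A Cxcl16 UMI was found in 35.4%, 46.9%, 29.9% and 34.6% of all Kupffer-like cells. Thinned to 1000 UMIs, which only 183 of 314, 688 of 1031, 183 of 432 and 62 of 104 of them reached, the shares were 13.7%, 21.2%, 23.5% and 25.8%. Thinned to 2000 UMIs they were 29.6%, 37.1%, 48.2% and 36.1%, so the order of the libraries depended on the depth and the groups overlapped at 2000 UMIs. The intervals cover counting error only.

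Among dendritic cells the level fell off sharply outside the migratory ones. Type 2 conventional dendritic cells (cDC2-like), which mainly prime CD4 T cells, had 32.3, 94.4, 99.3 and 125 CPM of Cxcl16 in Sed 1, Sed 2, Ex 1 and Ex 2, with 15 cells in Sed 1 and both exercised libraries on top. Type 1 cells (cDC1-like), which cross-present antigen to CD8 T cells, had 68.1, 74.3, 104 and 64.7 CPM. The ranges of cDC1-like and cDC2-like cells overlapped, and neither class was tested, since both had a library with under 30 cells. Hepatocyte-like cells ranged from 0.0 to 253 CPM, with only 3 and 7 cells in the exercised libraries.

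Monocyte-like cells, the circulating precursors of macrophages, held little Cxcl16 and were the only sender class in which its change was called. The level was 3.12 CPM in Sed 1, 4.29 in Sed 2, 18.8 in Ex 1 and 13.3 in Ex 2, from 30, 40, 73 and 30 UMIs. Both exercised libraries thus lay above both sedentary ones, as for 24.5% of genes tested in that class. The log2 change was 2.16 ± 0.32 (edgeR adjusted p = 0.0186), from 3.71 ± 0.829 to 16.0 ± 3.91 CPM (SD, n = 2 libraries per group), where 2.24% of 10128 genes were called. A Cxcl16 UMI was found in 2.16% and 2.74% of sedentary and in 7.46% and 8.15% of exercised cells, and after thinning to 1000 UMIs in 0.248% and 0.467% against 3.31% and 1.62%. The sedentary values lay within those of the conventional NK-like background, 0.0 to 5.64 CPM and, thinned, 0.0% to 0.8% of cells, so the size of the change rests on a group at background level.

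The class joins 2 kinds of monocytes, and the mix differed. A cluster led by Chil3 and Vcan, genes of classical monocytes, held 1045 and 937 sedentary but 59 and 37 exercised cells. A cluster led by Ace and Adgre4, genes of patrolling monocytes, held 206 and 376 sedentary and 598 and 282 exercised cells. In the Chil3 cluster Cxcl16 was at 2.92 and 2.24 against 6.86 and 0.0 CPM, with a log2 change of 0.48 ± 1.15 (edgeR adjusted p = 0.951), where 0.0% of 9137 genes were called, 553 having an unadjusted p under 0.05. In the Ace cluster it was at 4.78 and 11.1 against 20.3 and 16.0 CPM, with a log2 change of 1.15 ± 0.38 (edgeR adjusted p = 0.284), where 0.555% of 8474 genes were called.

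The rise in monocyte-like cells was called neither within the Chil3 nor within the Ace cluster. The call was also lost without Ex 1 and without Ex 2 at log2 changes of 1.82 and 2.39 (edgeR adjusted p = 0.302 and 0.171), fits in which edgeR called 0 genes of the class and 1168 and 1047 had an unadjusted p under 0.05. At smaller changes it was lost with doublets kept (1.45, edgeR adjusted p = 0.0634), with Cxcl16 and Cxcr6 allowed into the clustering (1.5, 0.0652) and at a clustering resolution of 0.5 (0.80, 0.319). Marker lists moved with it. The 12 other macrophage markers, all with a UMI, summed to 2020 and 901 CPM in Sed 1 and Sed 2 against 3270 and 2350 CPM in Ex 1 and Ex 2. That of the 13 neutrophil markers was 14000 and 6050 against 535 and 1460 CPM, that of the 9 monocyte markers 33200 and 22100 against 12800 and 14000 CPM, and that of the 7 erythroid markers 305 and 27.8 against 1600 and 2720 CPM. Their part in the result was not tested.

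In lymphocytes Cxcl16 was nearly missing. ILC1-like cells held 0 Cxcl16 UMIs in 55, 175, 84 and 69 cells of Sed 1, Sed 2, Ex 1 and Ex 2, which allows a share of cells with a UMI of up to 5.45%, 1.71%, 3.57% and 4.35%. Gamma-delta T-like cells also held none. NKT-like cells held 2 UMIs, both in 1 cell of Ex 1. Neutrophil-like and B cell-like cells stayed at 1.25 to 6.12 and 1.64 to 7.62 CPM, close to the 0.0 to 5.64 CPM of conventional NK-like cells. The log2 change was 0.90 ± 0.70 in neutrophil-like (edgeR adjusted p = 0.576, 0.09 to 1.8 with 1 library left out) and -0.30 ± 0.66 in B cell-like cells (0.855), where 0.883% of 7474 and 1.96% of 9022 genes were called.

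The UMIs of Cxcl16 were shared among the senders in varying parts. Other macrophage-like, Kupffer-like and endothelial-like cells together held 86.9%, 86.9%, 86.6% and 87.0% of all its UMIs in kept cells of Sed 1, Sed 2, Ex 1 and Ex 2. Within that nearly constant sum the parts varied. Kupffer-like cells gave 38.5% in Sed 2 but 18.5%, 6.1% and 3.21% in Sed 1, Ex 1 and Ex 2. Other macrophage-like cells gave 72.3% in Ex 1 and 36.1% in Sed 2, and endothelial-like cells 29.4% in Ex 2 and 8.19% to 12.3% elsewhere. Among the parts of these classes only that of Kupffer-like cells separated the groups, and it was lower in both exercised libraries. Kupffer-like cells held 1148442 and 4759110 UMIs of all genes in Sed 1 and Sed 2 against 621290 and 238586 in Ex 1 and Ex 2. Their Cxcl16 level was 199 and 238 against 328 and 293 CPM. The lower part thus went with fewer UMIs of the class and not with a lower level.

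**Figure D2:**
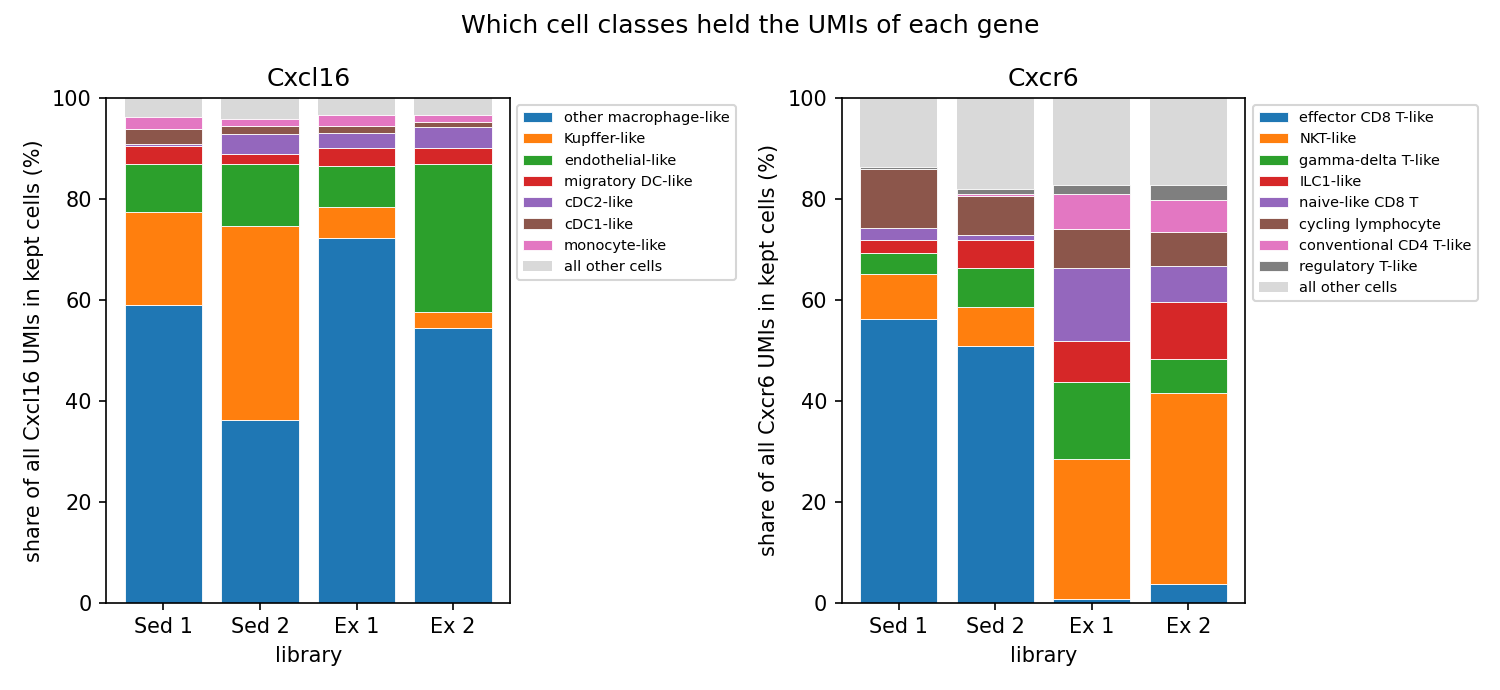
Share of all UMIs of Cxcl16 (left) and Cxcr6 (right) in kept cells that each cell class held, stacked to 100% for each of the 4 libraries. The 3 largest Cxcl16 classes sum to 86.6% to 87.0% in every library, while effector CD8 T-like cells hold 56.2% and 50.9% of Cxcr6 UMIs in the sedentary and 0.798% and 3.63% in the exercised libraries.

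Over all kept cells Cxcl16 was at 37.6 CPM in Sed 1, 82.3 in Sed 2, 116 in Ex 1 and 105 in Ex 2. Both exercised libraries were above both sedentary ones, as for 33.6% of genes. The log2 change of 0.78 ± 0.33 was not called (edgeR adjusted p = 0.349). No gene of 14087 was called by edgeR there (0.0%), while 2160 had an unadjusted p under 0.05 and DESeq2 called 653. Sed 1 weighed on this value: without Sed 2, leaving Sed 1 as the lone sedentary library, the change was 1.32 (edgeR adjusted p = 0.0134), and without Sed 1 it was 0.39.

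The genes that release CXCL16 from the membrane were described in the sender classes from a list of 12: the proteases, their tetraspanin and rhomboid-like partners and their inhibitors. Of these 7 were tested in Kupffer-like, 9 in other macrophage-like, 11 in endothelial-like and 8 in monocyte-like cells. In the Kupffer-like, other macrophage-like and monocyte-like cells edgeR called 0, with 0, 2 and 2 at an unadjusted p under 0.05, and DESeq2 also called 0. The median log2 change of the list was 0.39, 0.28, -0.14 and 0.13 in these 4 classes in that order, beside -0.01, -0.01, -0.01 and 0.0 over all genes tested.

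Adam10, the protease of constitutive shedding, was at 115 and 195 against 150 and 281 CPM in Kupffer-like cells (log2 change 0.50 ± 0.35, edgeR adjusted p = 0.709). Adam17, the protease of induced shedding, was at 53.0 and 77.4 against 99.3 and 120 CPM in other macrophage-like cells. Both exercised libraries were above both sedentary ones, as for 21.3% of genes tested there, and the change of 0.79 ± 0.23 was not called (edgeR adjusted p = 0.173). In endothelial-like cells Timp1, an inhibitor of metalloproteases, fell by 5.29 ± 0.40 on the log2 scale (edgeR adjusted p = 1.46e-05), from 68.2 and 61.4 CPM to 0.93 and 2.13 CPM. Timp1 was the single one of 11 members called there, where 5.99% of genes tested were called lower. The clusters behind the class differed between the groups, as given above, and marker lists moved with Timp1. The 7 erythroid markers summed to 82.2 and 47.2 against 4950 and 6740 CPM, the 6 platelet markers, with Gp1bb at 0, to 663 and 479 against 87.4 and 75.7 CPM, and the 9 monocyte markers to 476 and 674 against 138 and 88.0 CPM. Their part in the fall was not tested. Timp3, an inhibitor of ADAM17 that binds to the matrix, was at 780, 321, 612 and 890 CPM in the same cells, so its groups overlapped.

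CXCL16 is itself a scavenger receptor, and 10 other genes of that function were set beside it. In Kupffer-like cells 9 were tested and edgeR called 0 (2 at an unadjusted p under 0.05, 0 by DESeq2), with a median log2 change of -0.12. Marco, which binds bacteria and particles, was at 751, 2400, 2380 and 2720 CPM and Cd68 at 510, 629, 481 and 482 CPM in Sed 1, Sed 2, Ex 1 and Ex 2. In monocyte-like cells, where 1.32% of genes tested were called higher with exercise, 2 of 8 rose: Cd36, a receptor for fatty acids and oxidised lipoprotein, from 2.39 and 1.61 to 12.9 and 15.5 CPM (edgeR adjusted p = 0.0136) and Stab1, a clearance receptor, from 4.37 and 4.08 to 12.1 and 13.3 CPM (0.0346). The mix of monocyte clusters differed between the groups, as given above, and its part in these rises was not tested. In endothelial-like cells 5.99% of genes tested were called lower, and 1 of 8 fell, the lipoprotein receptor gene Scarb1. It went from 178 and 131 to 80.9 and 89.3 CPM (edgeR adjusted p = 0.0153). The clusters behind that class differed as well, and their part in the fall was not tested. In other macrophage-like cells 7 were tested and edgeR called 0, with 2 at an unadjusted p under 0.05 and 0 by DESeq2.

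Interleukin 15, which macrophages present to NK, NKT and ILC1 cells, was followed in the same senders as a second signal to the receivers. Il15 was at 17.4 and 27.8 against 38.5 and 31.3 CPM in other macrophage-like cells (log2 change 0.67 ± 0.26, edgeR adjusted p = 0.296). Its presenting receptor Il15ra was at 28.9, 8.25, 14.6 and 15.8 CPM there, with overlap. Of the 8 genes of presentation and receipt edgeR called 0 in other macrophage-like cells, although 6 had an unadjusted p under 0.05, DESeq2 called 2 and the median log2 change was 0.68. T cell markers in these cells were also higher in both exercised libraries, as given below, and their part in these values was not tested. In monocyte-like cells, where 1.32% of genes tested were called higher, 1 of 8 rose, the shared receptor chain gene Il2rg, from 19.5 and 31.2 to 51.0 and 54.0 CPM (edgeR adjusted p = 0.0467). The 9 T cell markers, all with a UMI, summed to 9.67 and 14.9 against 39.7 and 33.6 CPM in the same cells. Neither their part in that rise nor that of the mix of monocyte clusters was tested.

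On the receptor side gamma-delta T-like cells headed the order. These innate-like T cells, led here by Cd163l1, Il17a and Trdc, had Cxcr6 at 342 CPM in Sed 1, 752 in Sed 2, 730 in Ex 1 and 683 in Ex 2. NKT-like cells, named for T cells that recognise lipids and led here by Mmp9, Il4 and Cd40lg, with Zbtb16 further down, came next. Effector CD8 T-like cells and ILC1-like cells followed. Neighbours in this order had overlapping library ranges throughout. Sed 1 was the lowest of the 4 libraries in all 9 named T, NK, ILC1 and cycling lymphocyte classes, so it lowered the sedentary mean in each. In conventional NK-like cells and cycling lymphocytes that mean was still above the exercised one, at 7.67 against 4.62 and 98.8 against 97.7 CPM.

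**Figure D3:**
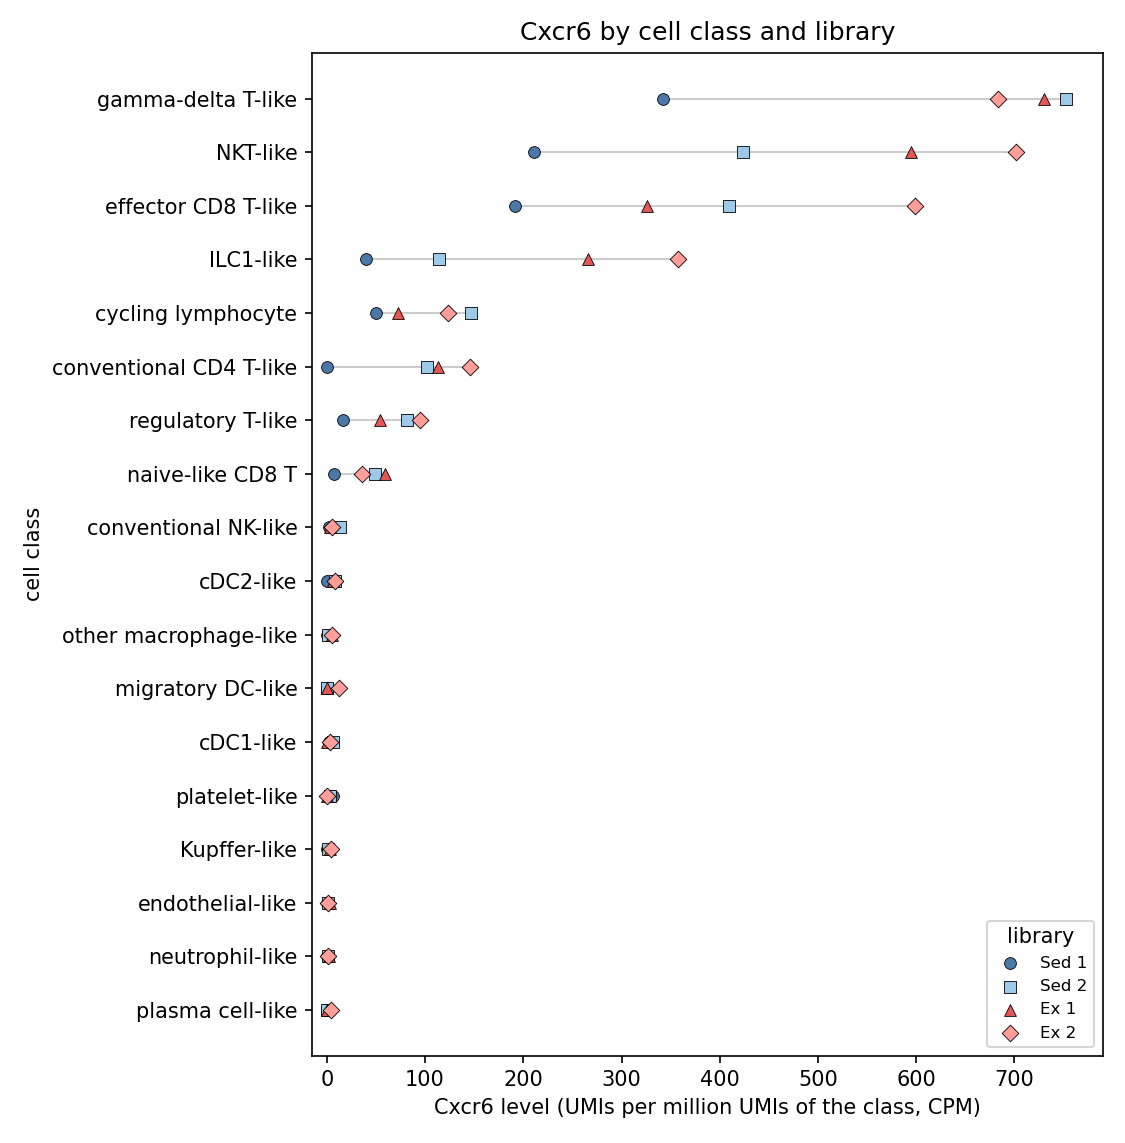
Level of Cxcr6 in CPM (linear axis) in 18 cell classes other than hepatocyte-like cells, 1 point per library, with a grey line over the range of the 4 libraries. Sed 1 is the lowest point in all 9 T, NK, ILC1 and cycling lymphocyte classes, and among the tested T, NK and ILC1 classes NKT-like and ILC1-like cells have both exercised libraries above both sedentary ones.

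ILC1-like cells, innate lymphocytes of the liver that resemble NK cells but stay in the tissue, were the tested class in which the change of Cxcr6 was called. The level was 39.8 CPM in Sed 1, 114 in Sed 2, 266 in Ex 1 and 357 in Ex 2, from 10, 59, 81 and 93 UMIs in 55, 175, 84 and 69 cells. Both exercised libraries lay above both sedentary ones, as for 29.5% of the genes tested in these cells. Cxcr6 rose by 1.75 ± 0.32 on the log2 scale (edgeR quasi-likelihood test, Benjamini-Hochberg adjusted p = 0.0244), from 76.9 ± 52.3 to 311 ± 64.2 CPM (SD, n = 2 libraries per group), a 3.36-fold change. It was the fifth of 3987 genes by p-value, and 17 genes were called (0.426%), of which 3 rose (0.0752%).

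The result held with each library left out. When Sed 1 was left out the log2 change was 1.34, and for Sed 2, Ex 1 and Ex 2 it was 2.72, 1.88 and 1.56, with edgeR adjusted p from 2.89e-06 to 0.0341. DESeq2 gave 1.82 ± 0.48 and an unadjusted p of 0.000158. It gave an adjusted p for only 277 of the 3987 genes in these cells, Cxcr6 not among them. With doublets kept no cluster was named ILC1-like, so that setting gave no value. In the other settings run with edgeR, the change passed the threshold, the highest adjusted p being 0.0462 with the stricter cell filter.

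The rise was also seen in the share of cells. A Cxcr6 UMI was found in 14.5% (exact 95% interval 6.5 to 26.7) and 21.7% (15.8 to 28.6) of sedentary and in 59.5% (48.3 to 70.1) and 63.8% (51.3 to 75.0) of exercised ILC1-like cells. The intervals of the sedentary libraries did not reach those of the exercised ones, but they cover counting error within a library and not the spread between libraries. The median depth was 3944, 2714, 3461 and 3760 UMIs per cell in Sed 1, Sed 2, Ex 1 and Ex 2, so depth did not follow the groups. Thinned to 1000 UMIs the shares were 7.27%, 10.8%, 24.4% and 30.9%, and thinned to 2000 UMIs 9.09%, 19.5%, 40.5% and 44.4%. Among conventional NK-like cells, the blood-borne relatives of ILC1, 1.59%, 1.11%, 0.948% and 1.6% had a Cxcr6 UMI. Neutrophil-like cells, a background class, had one in 0.0447% to 0.694% of cells at median depths of 2089 to 2592 UMIs, and B cell-like cells in 0.0% to 0.398% at 1626 to 2721 UMIs.

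**Figure D4:**
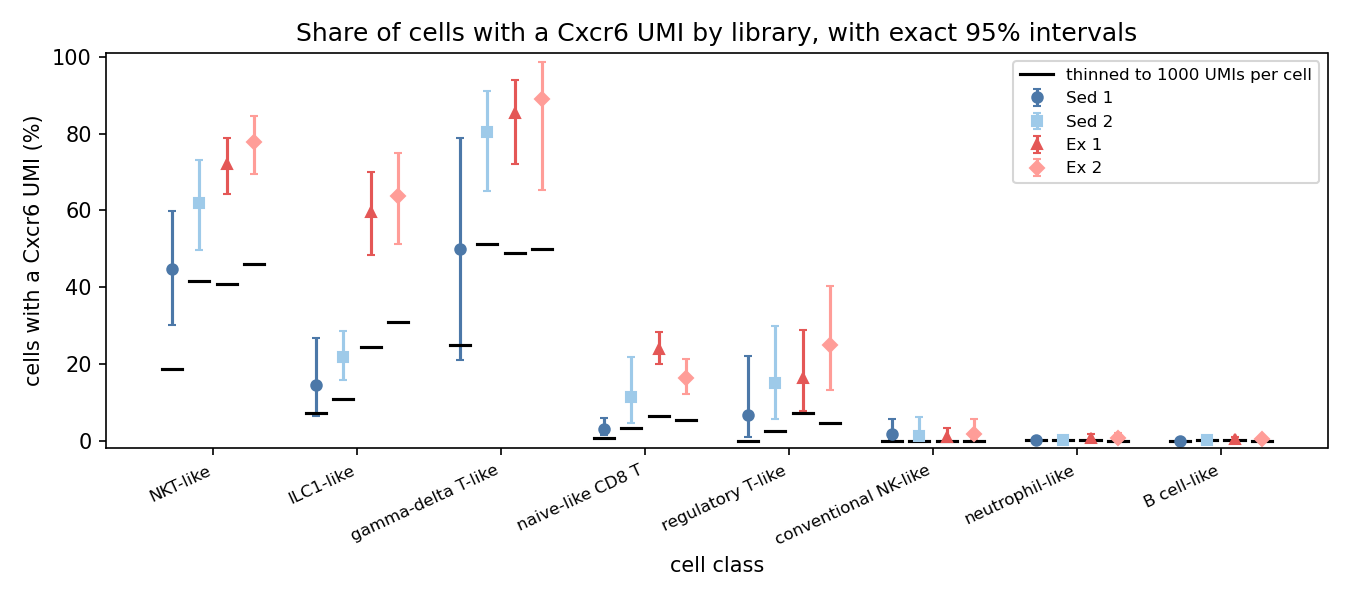
Percent of cells with a Cxcr6 UMI in 8 classes, 1 point per library with its exact 95% interval for counting error, and a black bar for the share after thinning to 1000 UMIs per cell. ILC1-like cells rise from 14.5% and 21.7% to 59.5% and 63.8%, while conventional NK-like, neutrophil-like and B cell-like cells stay under 2% in every library.

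The other genes called in ILC1-like cells went mostly down. With Cxcr6 rose Gzmc, which encodes granzyme C, a protease of cytotoxic granules, from 29.2 ± 18.8 to 350 ± 61.5 CPM (edgeR adjusted p = 2.3e-05), and S100a4, a calcium-binding protein gene, from 371 ± 158 to 1010 ± 56.6 CPM (0.0447). Gzma, another granzyme gene, fell by 1.96 ± 0.35 on the log2 scale, from 6280 ± 132 to 1770 ± 640 CPM (edgeR adjusted p = 0.018). Irf7, Isg15, Xaf1, Rtp4, Zbp1, Oas3, Bst2 and Ifi213, genes induced by interferon, also fell, with log2 changes from -3.32 for Oas3 to -1.24 for Bst2. The NK receptor gene Klra5 fell by 4.63 ± 0.97.

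The name of the class was checked against markers of its neighbours. All 10 ILC1 markers had UMIs, and they summed to 2900 and 3870 CPM in Sed 1 and Sed 2 against 3470 and 4570 CPM in Ex 1 and Ex 2. Of the 11 conventional NK markers 9 had a UMI and Khdc1a and Cma1 were at 0, and the sum was 271 and 446 against 659 and 556 CPM, higher in both exercised libraries. Of the other classes that carry Cxcr6, the lists of 3 overlapped between the groups. The 9 T cell markers summed to 1410 and 2690 against 2550 and 1490 CPM, the 10 NKT markers to 1660 and 1980 against 1730 and 2280 CPM with Trav11, Traj18 and Tnfsf11 at 0, and the 13 gamma-delta T markers to 410 and 531 against 512 and 598 CPM with Il17a, Il23r, Blk and Sox13 at 0. The B cell marker list, with Ms4a1 and Fcmr at 0, summed to 59.8 and 145 against 184 and 211 CPM. The 12 effector CD8 T markers, all with a UMI, summed to 19500 and 21600 against 14300 and 15800 CPM and the 9 broad NK or ILC1 markers to 13000 and 16100 against 10800 and 11100 CPM, both lower in the exercised libraries. The 9 monocyte markers, S100a4 among them, summed to 904 and 1040 against 1530 and 1380 CPM, and the 12 sinusoidal endothelial markers, with Lyve1, Kdr, Dnase1l3 and Bmp2 at 0, to 51.8 and 34.7 against 121 and 72.8 CPM. The part of these lists in the result was not tested.

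The genes that hold lymphocytes in tissue were examined in the same cells. Of 15 residency genes 10 were tested in ILC1-like cells and edgeR called 0, with 4 at an unadjusted p under 0.05. DESeq2 also called 0, but gave an adjusted p for only 1 of the 10. Their median log2 change was -0.08, beside 0.01 over all genes tested. Itga1, the integrin chain that marks ILC1, was at 55.8 and 170 against 207 and 268 CPM (log2 change 0.83 ± 0.33, edgeR adjusted p = 0.417). Cd69, which blocks exit from tissue, was at 191, 220, 157 and 261 CPM with overlap, and Rgs1, which dampens chemokine receptor signals, at 1250, 1470, 1150 and 1810 CPM with overlap.

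Of 11 recirculation genes 6 were tested in ILC1-like cells and edgeR called 0, with 2 at an unadjusted p under 0.05 and a median log2 change of -0.59. DESeq2 gave no adjusted p for these 6 genes. Klf2, the transcription factor of the exit receptor S1pr1, was at 199 and 162 against 105 and 76.7 CPM, with a log2 change of -1.10 ± 0.31 that was not called (edgeR adjusted p = 0.236). Among the other chemokine receptors Cxcr3, the receptor of CXCL9 and CXCL10, was at 135 and 120 against 151 and 192 CPM (log2 change 0.29 ± 0.28, edgeR adjusted p = 0.763).

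Of 18 genes of the G-protein signal below CXCR6 14 were tested in ILC1-like cells, and edgeR called 0, with 0 at an unadjusted p under 0.05. DESeq2 called 0 of the 3 that had an adjusted p. The median log2 change was -0.01. Gnai2, the inhibitory G-protein subunit that such receptors use, was at 474, 587, 571 and 579 CPM in Sed 1, Sed 2, Ex 1 and Ex 2, and Rac2, which drives the cytoskeleton, at 685, 901, 954 and 794 CPM, both with overlap. The receipt of interleukin 15 likewise had 0 of 5 tested genes called by edgeR, 0 at an unadjusted p under 0.05 and 0 called by DESeq2 of the 2 with an adjusted p. Its receptor gene Il2rb was at 1080, 1300, 1160 and 1710 CPM.

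In NKT-like cells Cxcr6 was at 211 CPM in Sed 1, 424 in Sed 2, 595 in Ex 1 and 702 in Ex 2, from 34, 84, 278 and 313 UMIs. Both exercised libraries were above both sedentary ones, as for 29.5% of genes tested in that class, and the gap between the sedentary libraries was wider than that between Sed 2 and Ex 1. The log2 change of 0.89 ± 0.29 was not called (edgeR adjusted p = 0.341), where 6 of 4120 genes were called (0.146%). All 6 are genes induced by interferon that fell, among them Ifit3 and Irf7. Without Sed 2 the change was 1.41 (edgeR adjusted p = 0.000381) and without Sed 1 it was 0.57 (0.606). DESeq2 gave 0.89 ± 0.37 with an unadjusted p of 0.0151, and an adjusted p for only 206 of the 4120 genes. The name of this class is weak. Its cluster scored 0.92 on the NKT list, with 6 of those markers found in at least 10% of cells, and 0.68 on the ILC1 list. At a naming score of 1.0 the cluster took no name. With the stricter cell filter and at a clustering resolution of 2 no NKT-like class with at least 30 cells in every library was found. These settings gave no value.

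The share of NKT-like cells with a Cxcr6 UMI was 44.7% (exact 95% interval 30.2 to 59.9), 62.0% (49.7 to 73.2), 72.0% (64.3 to 78.8) and 77.7% (69.6 to 84.5). Median depths were 3679, 2636, 2715 and 3154 UMIs. After thinning to 1000 UMIs the shares were 18.6%, 41.5%, 40.7% and 46.1%, with Sed 2 above Ex 1, and after thinning to 2000 UMIs 40.0%, 60.5%, 64.1% and 67.3%, with both exercised libraries highest. Of the other chemokine receptors Ccr9, found on gut-homing cells, was at 24.8 and 15.1 against 72.8 and 123 CPM (log2 change 2.17 ± 0.53, edgeR adjusted p = 0.248), and Ccr2, which guides cells to inflamed tissue, at 236, 262, 345 and 316 CPM (0.27 ± 0.26, 0.753). The residency list had 11 genes tested and 0 called by edgeR, with 1 at an unadjusted p under 0.05 and a median log2 change of 0.13. DESeq2 called 0, with an adjusted p for 1 of the 11.

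Effector CD8 T-like cells, which hold granzymes and checkpoint receptors, carried most Cxcr6 in sedentary mice and were almost missing in exercised mice, with 233 and 415 against 7 and 10 cells. Their Cxcr6 level was 192 (Sed 1), 409 (Sed 2), 326 (Ex 1) and 599 CPM (Ex 2), the last pair from 8 and 30 UMIs, so the groups overlapped. The class was below the minimum of 30 cells per library and was not tested. A Cxcr6 UMI was found in 53.2% and 64.6% of the sedentary cells and in 57.1% (exact 95% interval 18.4 to 90.1) and 70.0% (34.8 to 93.3) of the exercised ones. After thinning to 1000 UMIs the shares were 16.5%, 31.5%, 14.3% and 40.0%.

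Naive-like CD8 T cells held less. Cxcr6 was at 6.86 CPM in Sed 1, 48.6 in Sed 2, 59.4 in Ex 1 and 36.3 in Ex 2, so the groups overlapped and Sed 1 stood apart. The log2 change was 1.51 ± 0.56 (edgeR adjusted p = 0.28), where 1.54% of 7859 genes were called. It was -0.02 without Sed 1 and it was called without Sed 2 (2.65, edgeR adjusted p = 1.34e-05) and without Ex 2 (1.81, 0.00187). A cluster led by Gzmm, Ly6c2 and Klra6 held 318 and 165 of the exercised but 41 and 21 of the sedentary cells, with Cxcr6 at 67.2 and 44.3 against 13.2 and 68.6 CPM. The other, led by Igfbp4, Dapl1 and Ccr7, held 105 and 111 against 246 and 41 cells, with 24.7 and 20.6 against 5.53 and 34.5 CPM. The name is weak for the Gzmm cluster, which scored 0.86 on the naive-like list against 1.23 in the other. Most exercised cells of the class thus rest on that weak name. At a naming score of 1.0 the Gzmm cluster took no name, and the log2 change in the class was 1.14 ± 0.66 (edgeR adjusted p = 0.41).

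In naive-like CD8 T cells, where 0.738% of all genes tested were called higher with exercise, the chemokine receptor genes Cxcr3 and Cxcr5 rose. Cxcr3 went from 20.6 and 36.5 to 116 and 61.4 CPM (edgeR adjusted p = 0.0046) and Cxcr5 from 0.762 and 0.0 to 10.2 and 17.5 CPM (0.0102). Of the residency genes 2 of 11 rose, Itga1 from 0.762 and 8.1 to 24.6 and 13.2 CPM (edgeR adjusted p = 0.0153) and Nr4a2, an orphan nuclear receptor, from 7.62 and 8.1 to 31.2 and 25.1 CPM (0.0394). DESeq2 called none of these 4 genes and gave no adjusted p for Cxcr5. The mix of the clusters moved with these genes as it did with Cxcr6, and its part in the rises was not tested.

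Regulatory T-like cells, which restrain other T cells, had Cxcr6 at 16.2, 81.5, 54.5 and 95 CPM in Sed 1, Sed 2, Ex 1 and Ex 2, with overlap. The log2 change was 0.62 ± 0.56 (edgeR adjusted p = 0.881), where 0.659% of 2883 genes were called, and -0.09 without Sed 1. Conventional CD4 T-like cells, the helper cells, had 0.0, 102, 113 and 146 CPM, with 13 and 16 cells in the sedentary libraries, under the minimum for a test. Cycling lymphocytes had 50.6, 147, 72.3 and 123 CPM, with overlap. Clusters of lymphocytes that took no name held a further 8.07%, 7.54%, 9.87% and 5.69% of Cxcr6 UMIs.

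In the classes that should lack the receptor the level was near 0. Neutrophil-like cells had 0.138 to 2.34 CPM of Cxcr6, B cell-like cells 0.0 to 1.57 CPM and monocyte-like cells 0.0 to 1.03 CPM. Other macrophage-like cells had 0.482, 1.72, 5.21 and 5.76 CPM. Both exercised libraries were above both sedentary ones, as for 21.3% of genes tested in that class. The log2 change of 2.21 ± 0.61 was not called (edgeR adjusted p = 0.156, log2 change 1.72 to 3.44 with 1 library left out), where 0.335% of 9546 genes were called. In the same cells the 9 T cell markers, all with a UMI, summed to 38.6 and 74.9 against 163 and 106 CPM, so T cell RNA moved the same way, and its part in that value was not tested.

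The Cxcr6 UMIs lay mostly in different receivers in sedentary and exercised libraries. Effector CD8 T-like cells held 56.2% and 50.9% of them in sedentary but 0.798% and 3.63% in exercised libraries. NKT-like, ILC1-like and gamma-delta T-like cells together held 15.6% (exact 95% interval 12.1 to 19.7) and 20.9% (18.5 to 23.4) in sedentary and 50.9% (47.8 to 54.1) and 55.9% (52.5 to 59.4) in exercised libraries. ILC1-like cells alone went from 2.6% and 5.42% to 8.08% and 11.3%, and NKT-like cells from 8.85% and 7.72% to 27.7% and 37.9%. These shares follow from the numbers of cells caught as well as from the level per class.

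Over all kept cells Cxcr6 was at 11.7, 30.5, 34.8 and 39.7 CPM in Sed 1, Sed 2, Ex 1 and Ex 2. The exercised libraries were above the sedentary ones, as for 33.6% of genes, but Sed 2 lay closer to the exercised libraries than to Sed 1. The log2 change of 0.72 ± 0.40 was not called (edgeR adjusted p = 0.454). It was 1.43 without Sed 2 (edgeR adjusted p = 0.00689) and 0.24 without Sed 1.

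**Figure D5:**
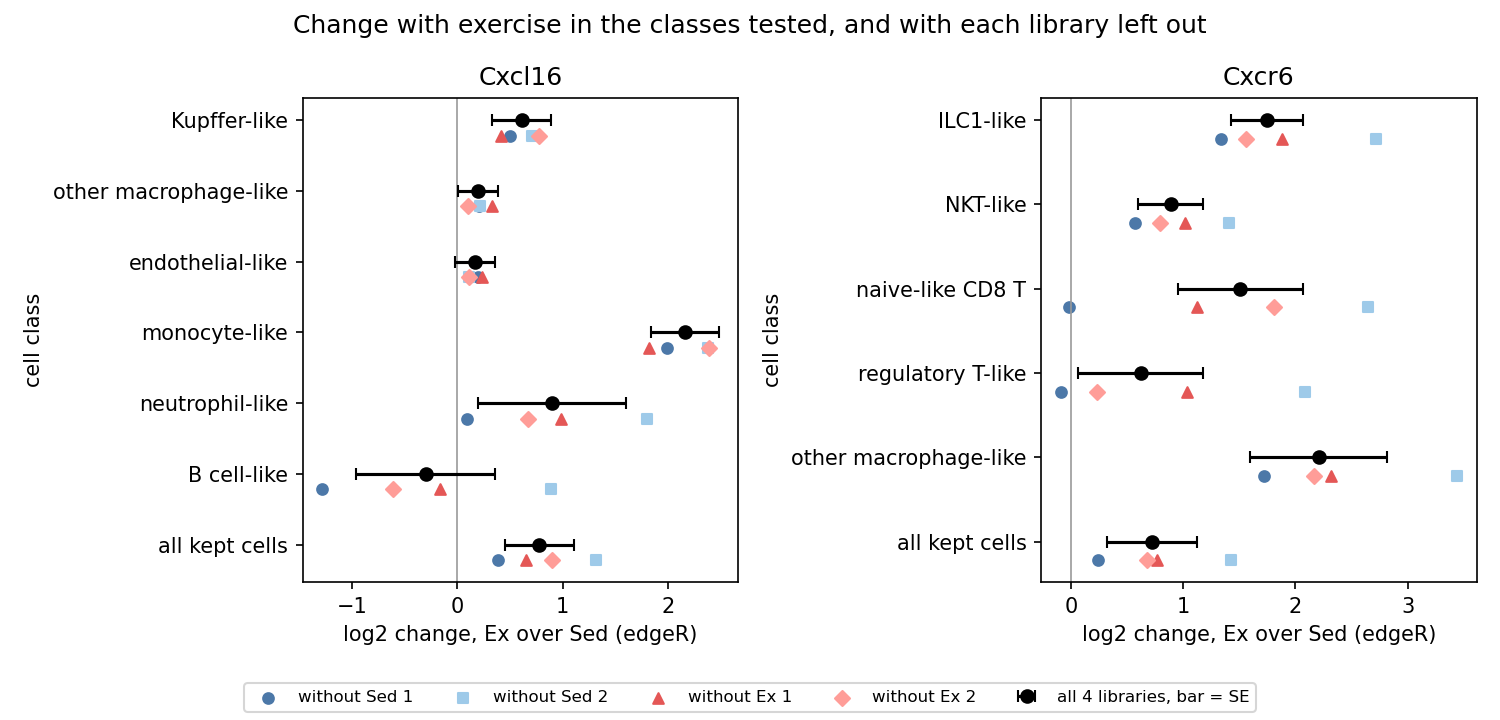
Log2 change from sedentary to exercised libraries of Cxcl16 (left) and Cxcr6 (right) in every class where the gene was tested, with the SE as bar and coloured points for the fit with 1 library left out. Cxcr6 in ILC1-like cells stays between 1.34 and 2.72 whichever library is left out, while in naive-like CD8 T cells it goes to -0.02 without Sed 1.

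Whether the changes differed between classes was tested within libraries, as class by exercise in edgeR. The change of Cxcr6 in ILC1-like cells exceeded that in NKT-like cells by 0.93 ± 0.32 on the log2 scale, which was not called (edgeR adjusted p = 0.406, unadjusted p = 0.00318), where 0.152% of 4597 genes were called. The differences to NKT-like cells were 0.33 ± 0.47 in naive-like CD8 T cells, -1.51 ± 0.83 in conventional NK-like cells and -0.28 ± 0.54 in regulatory T-like cells, with edgeR adjusted p from 0.725 to 0.95, where 0.667%, 0.299% and 2.15% of genes were called. A larger change of Cxcr6 in ILC1-like than in NKT-like cells was therefore not shown, and ILC1-like cells were not compared with the other receivers. For Cxcl16 the change in monocyte-like cells exceeded that in Kupffer-like cells by 1.58 ± 0.32 (edgeR adjusted p = 0.0124), where 1.13% of 10298 genes were called. The changes in other macrophage-like and endothelial-like cells differed from that in Kupffer-like cells by -0.37 ± 0.33 and -0.37 ± 0.35 (edgeR adjusted p = 0.759 and 0.801), where 1.62% and 0.809% of genes were called. For neutrophil-like cells the difference was 0.21 ± 0.55 (edgeR adjusted p = 0.932), where 0.107% were called.

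The genes most like Cxcl16 in their profile over the 12 tested classes were Rab3il1, Batf2, Dab2, Slc7a8, Cttnbp2nl, Cxcl9, Ccnd1 and Zmynd15, with Pearson r from 0.989 to 0.959 among 8916 genes. Zmynd15 is the gene that shares bases with Cxcl16, at 6.97, 8.19, 25.8 and 29.3 CPM in Kupffer-like cells of Sed 1, Sed 2, Ex 1 and Ex 2. The genes most like Cxcr6 were Podnl1, Trgv2, Tcrg-C2, Tasp1, Atp8a2, Tesc, Tcrg-C1 and Cd226, with r from 0.989 to 0.949. Trgv2, Tcrg-C1 and Tcrg-C2 are segments of the gamma chain of the T cell receptor, and in NKT-like cells Trgv2 was at 93.1, 70.6, 77.1 and 83.0 CPM. The 12 points come from the same 4 libraries, so r is a description of these classes.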

How the data were processed

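The authors deposited 1 matrix of UMI counts per gene and barcode, joined from the libraries by Cell Ranger, per the file headers. The submitters' processing notes give version 7.0.0 with mm10 and GRCm38, and the matrix header gives 6.1.1. Of 51140 columns, 28525 carried a barcode, and the other 22615 were not used. The ending of a barcode was read as the library's place in the deposited aggregation table, which limits every comparison.

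Barcodes under 200 genes or over 10% mitochondrial UMIs were dropped, then 0.8% per 1000 cells as doublets by Scrublet score (scanpy 1.11.5), because its own threshold marked too few cells. That threshold marked 3.47% and 4.24% of cells in Sed 1 and Sed 2 but 0.0165% and 0.0236% in Ex 1 and Ex 2. Leiden clustering (leidenalg 0.10.2, resolution 1) used 2000 variable genes. Clusters took the best marker list at a score of at least 0.8 (0.5 for dendritic cells), thresholds set after seeing the clusters. Sums of UMIs over the cells of a class in a library were tested with edgeR 4.0.16 in R 4.3.3 (quasi-likelihood, robust, filterByExpr, TMM) at a Benjamini-Hochberg adjusted p of 0.05. The SE was taken as the log2 change divided by the root of the F statistic. DESeq2 1.42.0 was run beside it. With 2 libraries a side, an exact permutation test cannot go below a two-sided p of 0.333. The tests were tested on simulated data. Differences between classes for Cxcr6 used NKT-like cells as reference, since effector CD8 T-like cells were too few. The genes named are both members in all classes, called genes of each list or up to 4 of its highest, and the 8 nearest profiles. Some list genes are not reported here. Members and lists were chosen with earlier results of these data known. Likeness used log2(CPM + 10) means of genes reaching 20 CPM. Depth per library was 23918964 to 41027638 UMIs.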

Additional observations from a re-analysis of the deposited data

Results flagged for a closer look

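The change of Cxcl16 with exercise differed between monocyte-like and Kupffer-like cells by 1.58 ± 0.32 on the log2 scale in the test of the difference itself (edgeR quasi-likelihood test of class by exercise, Benjamini-Hochberg adjusted p = 0.0124). The difference was called without Sed 1 and without Sed 2, but not without Ex 1 (edgeR adjusted p = 0.386) or Ex 2 (0.0621). The mix of monocyte clusters also differed between the groups, and its part was not tested.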

How the results depend on the processing

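Of 200 values of the members under alternatives, 173 kept direction and side of the threshold, 10 lost the call, 8 gained it and 9 turned. Where DESeq2 gave no adjusted p, a result not called was counted as kept if its direction held. The DESeq2 value of Cxcr6 in ILC1-like cells, also without an adjusted p, was left out of the 200. Settings in which a class took no name or fell under 30 cells in a library gave no value and are not among them. Some alternatives left the cells of a class as they were and could only repeat its result. Naming at a score of 1.0 did so in ILC1-like cells, with 1.75 and an edgeR adjusted p of 0.0244 again. The 173 thus include values that could not differ. For Cxcl16 in monocyte-like cells the log2 change was 1.45 with doublets kept, 0.80 at resolution 0.5, 1.5 with the members among the variable genes, 0.48 with clusters named at a score of 1.0 and in the Chil3 cluster alone, and 1.15 in the Ace cluster alone. The last 3, the score and the cluster settings, were chosen after seeing the data. Without 1 library the ranges were 1.82 to 2.39 there, 1.48 to 1.63 for the difference to Kupffer-like cells, -0.58 to 0.97 for that of neutrophil-like cells, 0.39 to 1.32 over all kept cells and -1.28 to 0.89 in B cell-like cells, where the stricter cell filter gave 0.02. For Cxcr6 they were -0.02 to 2.65 in naive-like CD8 T, 0.57 to 1.41 in NKT-like, -0.09 to 2.09 in regulatory T-like and 0.24 to 1.43 in all kept cells, and -0.59 to 1.17 and -0.62 to 0.68 for naive-like CD8 T and regulatory T-like minus NKT-like cells. Leaving out 1 of 2 libraries assumes that the lone one varies like the others. Without the low-count filter Cxcr6 was called in naive-like CD8 T (1.53) and other macrophage-like cells (2.24). The labels do not say that the numbers pair libraries, and deviations of same-numbered libraries correlated at -0.03 to 0.23. With a replicate block Cxcr6 in naive-like CD8 T cells was called (1.5), no other call on the members changed, and called genes went from 17 to 107 in ILC1-like and from 0 to 846 over all kept cells. Over all alternatives and libraries left out, the number of genes called went from 9 to 107 in ILC1-like (17 in the result as reported), 0 to 237 in NKT-like (6), 6 to 312 in naive-like CD8 T (121), 0 to 56 in regulatory T-like (19), 0 to 151 in Kupffer-like (8), 2 to 709 in other macrophage-like (32), 286 to 1459 in endothelial-like (953), 0 to 1636 in monocyte-like (227), 0 to 1461 in neutrophil-like (66), 30 to 622 in B cell-like (177) and 0 to 846 in all kept cells (0), so the share of genes called is itself unsteady. Thinned to 2000 UMIs the share of migratory dendritic cells with a Cxcl16 UMI differed by 24.2 percentage points, against -15.6 at 1000. DESeq2 gave an adjusted p for 277 of 3987 genes in ILC1-like and 206 of 4120 in NKT-like cells. At 10 to 93 Cxcr6 UMIs per library in ILC1-like cells, depth limits finer comparisons.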
